A study of Ovis aries with 16 samples.

Results

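Of the 4996 putative piRNAs listed for the ovine testis, 69 (1.38%) had a value of exactly 0 in 3 or more of the 13 deeply sequenced libraries. Like all 4996, each had CPM (counts scaled to 1000000 piRNA reads of its library) above 5 in at least 8 of all 16 libraries. These 69 piRNAs are described here by the males in which they were present and absent. They were chosen by their zeros: 85 piRNAs met that condition, 4 of them were left out by name and 12 because their values equalled those of another piRNA in every library. The choice named 8 piRNAs in all to leave out, most of which stand on the study's own list of piRNAs that differ between diets. Candidates left out by name are not among the 69 in any count by diet below. No candidate was among the 300 piRNAs with the highest mean CPM, which the choice also left out. The zeros, the levels and everything computed from them in these libraries are therefore a description of the piRNAs that were chosen. The zeros were not tested, and the diets were compared only in a fit of all piRNAs.

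The tissue came from 16 sexually mature male Merino sheep, and 1 library was made from 1 testis of each male. For 65 days, 8 males were fed to gain 10% of body mass (well-fed) and 8 were fed to lose the same share, a target change of -10% (underfed). The males were housed singly, and the labels name no allele, drug or other treatment beside diet in either group. RNA came from whole testis, which holds germ cells of every stage together with Sertoli, Leydig and other somatic cells, so fewer cells carrying a piRNA and less of that piRNA per cell cannot be told apart.

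piRNAs are small RNAs bound by PIWI proteins, the germline branch of the Argonaute family. They guide these proteins to complementary transcripts, and they are best known for silencing transposons in germ cells, which keeps the genome of the germline stable. In the adult mammalian testis most piRNAs are made by meiotic (pachytene) spermatocytes from long single-stranded transcripts of discrete genomic clusters, and males that lack PIWI proteins are infertile in the mouse. In these data a piRNA is 1 distinct sequence of 26 to 32 nt that matched the genome without a mismatch and passed a predictor trained on other species, numbered with the prefix oar-piR. Their PIWI proteins were not measured here. The lengths are close to each other, so CPM was not divided by length. Whether different sequences are counted equally well was not tested, so levels of different piRNAs are ranked only as counted. The study discarded reads with a mismatch to the reference genome, so an absence here means that no such matching read was counted. Whether sequence differences between males account for any absence was not tested.

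The low CPM of each library were whole multiples of 1 value, that of 1 read, and this gave the reads behind every value. The deep libraries held between 325307 and 721305 piRNA reads in well-fed males (median 570653, n = 7) and between 244875 and 625230 in underfed males (median 313549, n = 6). A 0 was taken to allow up to 3 reads. This limit was 4.16 to 9.22 CPM in the well-fed and 4.798 to 12.3 CPM in the underfed deep libraries, and it covers counting error alone. Shallow libraries came from 3 males, well-fed replicate 5 (25552 reads), underfed replicate 6 (18110 reads) and underfed replicate 8 (33385 reads), and there a 0 allows up to 117, 166 and 89.9 CPM. The rule did not use their zeros, and their values are given apart.

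Absence from 3 or more deep libraries was rare among the listed piRNAs. In total, 4242 of the 4996 were never at 0 in a deep library, 484 were at 0 in 1 and 185 in 2. Of the 69, 43 were at 0 in 3 deep libraries, 17 in 4, 4 in 5, 4 in 6 and 1 in 7. Their mean CPM over the deep libraries ranged from 4.07 to 521 with a median of 8.23, against a median of 36.1 for the other 4927 piRNAs. Their values were more uneven among males, but the zeros that chose them raise this measure, and the comparison was not matched for level. The coefficient of variation (SD divided by mean) over the 13 deep libraries had a median of 0.874, with a range from 0.652 to 1.72, and the median of the others was 0.391.

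Together the 69 piRNAs made up a small share of the piRNA reads, between 0.0714% and 0.378% in the deep libraries. Their summed level was 1909 to 3311 CPM in well-fed males (median 2273, n = 7) and 714 to 3781 CPM in underfed males (median 1274, n = 6). Underfed replicates 2, 3 and 4 were the 3 lowest, with 891, 918 and 714 CPM, while underfed replicate 1 was the highest of the deep libraries. The ranges of the diets overlapped.

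Low depth and many absences went together, as the plot of piRNAs at 0 against reads shows. The deepest library, well-fed replicate 6, lacked 6 of the 69 and the shallowest of the deep libraries, underfed replicate 5, lacked 37. The 7 well-fed deep libraries lacked between 6 and 19 and the 6 underfed deep libraries between 12 and 37. In all, 99 of 483 values were 0 in the well-fed deep libraries (20.5%) and 149 of 414 in the underfed (36.0%). The other piRNAs had 0.780% and 2.19%, a gap from the 69 that the choice by zeros made. The underfed libraries were shallower, so diet and depth could be separated only where libraries of like depth stood side by side. Well-fed replicate 3, with 325307 reads, lacked 19, and underfed replicates 2 and 3, with 358950 and 338823 reads, lacked 19 and 25. Well-fed replicate 8 and underfed replicate 7, with 608048 and 625230 reads, lacked 13 and 12. Within the well-fed diet, replicates 4 and 7, with 570653 and 554981 reads, lacked 19 and 10. The part of depth in the difference between the diets was not tested.

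**Figure D1:**
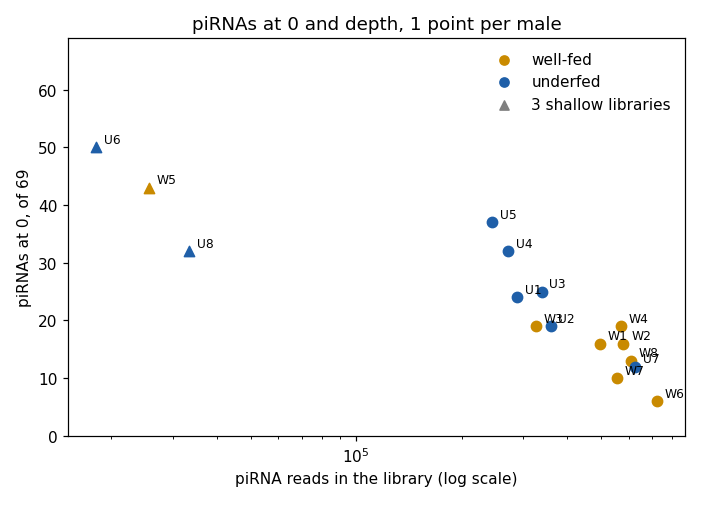
Number of the 69 piRNAs at 0 in each library (vertical axis) against its piRNA reads (horizontal axis, log scale), 1 point per male, coloured by diet, with triangles for the 3 shallow libraries (W, well-fed; U, underfed). The count is 37 in the shallowest deep library and 6 in the deepest. At like depth underfed replicate 7 (12) lies beside well-fed replicate 8 (13), whereas well-fed replicates 4 and 7 differ (19 and 10).

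Among the 69, no absence followed diet without exception, but the choice left little room for one that did. Each listed piRNA had to exceed a minimum CPM in a set number of libraries. A piRNA missing from a whole diet could be listed only if every library of the other diet, shallow ones included, exceeded that minimum. Candidates left out by name are also not counted here. The counts by diet are therefore no test of whether absences follow diet. Of the 69, 52 were at 0 in at least 1 deep library of each diet, 14 only in underfed and 3 only in well-fed deep libraries, and none was at 0 in every deep library of one diet while present in every deep library of the other. The share of libraries at 0 was higher in underfed males for 47 and higher in well-fed males for 22. Among the other piRNAs with a 0, 104 were at 0 in both diets, 447 only in underfed and 134 only in well-fed deep libraries, and the share was higher in underfed males for 549 and in well-fed males for 136. The tilt toward underfed males was thus also present outside the 69. The libraries that lacked a piRNA formed 58 different sets, and 51 of these belonged to 1 piRNA each. The 2 commonest sets held 4 piRNAs each. In the first, oar-piR-978, oar-piR-1528, oar-piR-5885 and oar-piR-8563 were at 0 in underfed replicates 3, 4 and 5. In the second, oar-piR-1033, oar-piR-1231, oar-piR-2032 and oar-piR-9820 were at 0 in well-fed replicate 3 and underfed replicates 1 and 5.

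For 30 of the 69 the level in the males that held the piRNA was, at its median, above what a 0 allows in the males that lacked it. In these 30, which were picked after their values were seen, the median CPM of the deep libraries that held the piRNA was higher than the 3-read limit of every deep library that lacked it. They had 124 zeros among their 390 deep values. At the piRNA's own median, the libraries with those zeros would have held between 3.08 and 423 reads (median 15.4). For 89 of the 124 zeros this number was above 10 reads, for 21 it was above 50 and for 11 above 100. The 21 belonged to 6 piRNAs, oar-piR-57, oar-piR-2327, oar-piR-487, oar-piR-2771, oar-piR-3085 and oar-piR-1617, which also had the 6 highest mean levels of the 69.

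Within the same outer limits of mean CPM, the other piRNAs were rarely at 0, as the choice by zeros implies. Over the range of mean CPM spanned by the 30, from 8.49 to 521, there were 4099 other piRNAs. Their values were 0 in 0.843% of deep libraries, compared with 31.8% for the 30, whose zeros are the reason they were chosen. The 4099 are mostly piRNAs at 0 in fewer than 3 deep libraries, so their share follows from the choice as well. Levels were not matched within the range. Values of 1 to 3 reads made up 8.63% of the values of the 4099 and 10.3% of those of the 30. The rule for zeros did not use them, but the pick of the 30 limits them, because it required a median above the 3-read limit. The shares also count the zeros: the 30 had 124 values at 0, 40 of 1 to 3 reads and 226 above 3 reads. The shares therefore cannot tell whether low counts were as common in the 30 as in the 4099. The coefficient of variation of the 30, which their zeros raise, had a median of 0.995.

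**Figure D2:**
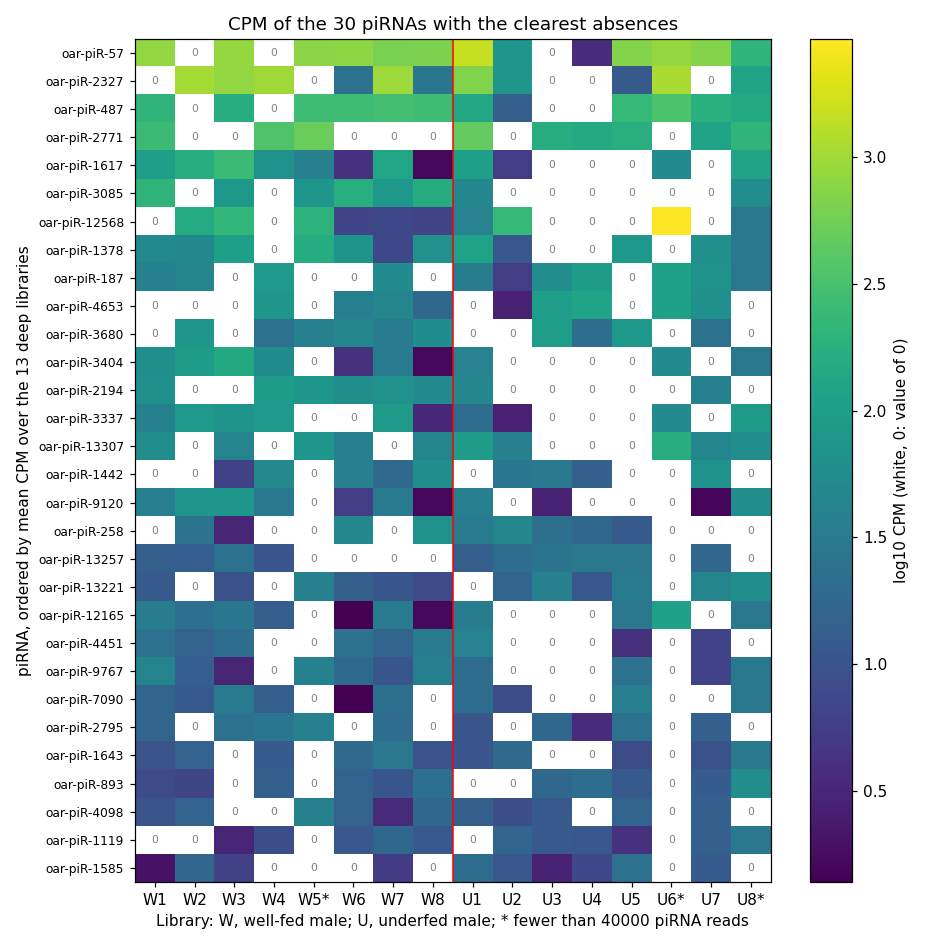
CPM of the 30 piRNAs (rows, ordered by mean CPM over the 13 deep libraries, highest at the top) in the 16 libraries (columns; W, well-fed; U, underfed; a star marks a shallow library), as colour on a log10 scale with values of 0 in white and marked 0. Absences are spread over both diets, with 16 and 17 of the 30 at 0 in underfed replicates 3 and 4 and 4 of the 30 at 0 in well-fed replicate 7.

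The most abundant of the 69 was oar-piR-57, with a mean of 521 CPM over the deep libraries. It was at 0 in well-fed replicates 2 and 4 and underfed replicate 3, where its own median level would have given 408, 402 and 238 reads. In the well-fed deep libraries its CPM was 0 at the lowest, 646 at the median and 864 at the highest, and in the underfed deep libraries it was 0, 390 and 1512. The 5 well-fed deep libraries that held it lay between 627 and 864 CPM. Underfed males were more graded, with 28 reads (78.0 CPM) in replicate 2, 1 read (3.68 CPM) in replicate 4 and 702, 705 and 1512 CPM in replicates 5, 7 and 1. The 3 shallow libraries all held it, at 783 CPM in well-fed replicate 5 and at 883 and 210 CPM in underfed replicates 6 and 8.

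oar-piR-487 was present and absent in nearly the same males as oar-piR-57, at a lower level. Its CPM was 0, 208 and 299 (lowest, median and highest) in the well-fed deep libraries and 0, 72.9 and 237 in the underfed. It was at 0 in well-fed replicates 2 and 4 and in underfed replicates 3 and 4, and at 13.9 CPM (5 reads) in underfed replicate 2. oar-piR-3085 lacked the same well-fed libraries. It was present in the other 5 at 82.9 to 200 CPM, but among the underfed deep libraries only replicate 1 held it, at 48.6 CPM (14 reads). The medians of oar-piR-3085 were 83.0 CPM in the well-fed and 0 in the underfed deep libraries, and it was the piRNA at 0 in 7 deep libraries. The 4 at 0 in 6 deep libraries were oar-piR-2771, oar-piR-12568, oar-piR-2194 and oar-piR-13307.

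oar-piR-2327 was the second most abundant and was absent from other males. It was at 0 in well-fed replicate 1 and in underfed replicates 3, 4 and 7, and its own median of 676 CPM would have given 335, 229, 184 and 423 reads there. Well-fed replicates 2, 3, 4 and 7 held 858 to 1045 CPM, whereas replicates 6 and 8 held 24.95 and 28.0 CPM. The median was 858 CPM in the well-fed and 6.13 CPM in the underfed deep libraries, in which the highest value was 676 CPM, in replicate 1. The shallow underfed replicate 6 held 20 reads (1104 CPM), so the full range of this piRNA was found within the underfed diet.

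oar-piR-1617 and oar-piR-9120 shared most of that pattern. oar-piR-1617 ranged from 1.64 to 255 CPM in the well-fed deep libraries (median 96.9) and from 0 to 104 CPM in the underfed (median 0). Every well-fed deep library held it, although replicates 6 and 8 had 3 reads and 1 read. For oar-piR-9120 the well-fed deep libraries spanned 1.64 to 76.9 CPM (median 32.4) and the underfed 0 to 38.2 CPM (median 0.800). In both cases underfed replicate 1 was the only underfed deep library above 10 CPM.

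oar-piR-2771 had another pattern, and among the deep libraries it was at 0 in 5 of the 7 well-fed and in 1 of the 6 underfed, replicate 2. Underfed replicates 3 and 4 held it at 162 and 147 CPM and had little or none of the piRNAs above, whereas underfed replicate 1 held them all. The 2 well-fed deep libraries with it, replicates 1 and 4, had 258 and 356 CPM, and the 5 underfed ones had 120 to 468 CPM. The medians of the deep libraries were 0 CPM for the well-fed diet and 155 CPM for the underfed. With 13 reads, the shallow well-fed replicate 5 held 509 CPM, the highest of all 16 libraries, so the ranges of the diets overlapped.

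Other piRNAs among the named ones were absent from a mixture of males. oar-piR-12568 was high in well-fed replicates 2 and 3 (154 and 218 CPM) and in underfed replicate 2 (234 CPM), at 41.6 CPM in underfed replicate 1, at 6.58 to 7.21 CPM in well-fed replicates 6, 7 and 8, and at 0 in well-fed replicates 1 and 4 and underfed replicates 3, 4, 5 and 7. oar-piR-4653 was at 0 in well-fed replicates 1, 2 and 3 and underfed replicates 1 and 5, and reached 121 CPM in underfed replicate 4. oar-piR-187 was at 0 in well-fed replicates 3, 6 and 8 and in underfed replicate 5, and reached 92.0 CPM in underfed replicate 4. For oar-piR-4653 and oar-piR-187 the medians were 18.1 and 40.4 CPM in the well-fed and 33.4 and 46.9 CPM in the underfed deep libraries, and the ranges overlapped. oar-piR-13307 was at 0 in 3 deep libraries of each diet and otherwise between 39.0 and 93.7 CPM in the deep libraries. oar-piR-2194 was at 0 in well-fed replicates 2 and 3 and in 4 of the 6 underfed deep libraries, and the libraries that held it lay between 40.0 and 94.6 CPM. For oar-piR-1643 the lowest, median and highest CPM were 0, 12.3 and 28.8 in the well-fed and 0, 8.88 and 19.5 in the underfed deep libraries.

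Several of the 30 were high and low in the same males. For every pair, the deep libraries were counted in which both piRNAs lay on the same side of their own mean CPM. Of the 435 pairs, 1 was on the same side in all 13 libraries (oar-piR-1617 and oar-piR-9120), 7 in 12 libraries and 17 in 11. The commonest counts were 6 libraries, with 70 pairs, and 5 and 8 libraries, with 66 pairs each. At the low end, 25 pairs were on the same side in 3 libraries, 8 in 2 and 2 in 1, so some pairs were mostly opposite. These counts describe libraries that share depth and denominator, and no test was made of them.

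With oar-piR-1617 as the reference, 6 others were on its side in at least 11 libraries: oar-piR-2327, oar-piR-3404, oar-piR-3337, oar-piR-9120, oar-piR-12165 and oar-piR-7090. The summed CPM of these 7 was 1495, 1469, 1246 and 1285 in well-fed replicates 2, 3, 4 and 7, but 287 in replicate 1 and 41.6 and 37.8 in replicates 6 and 8. In underfed males it was 937 in replicate 1 and 0 to 91.9 in the other 5 deep libraries. The well-fed median was 1246 CPM (n = 7) and the underfed median 40.3 CPM (n = 6), yet the ranges overlapped because both diets had high and low males. The sum is mostly oar-piR-2327, whose 0 in well-fed replicate 1 sets the value there. oar-piR-12165, at a lower level, had 1.39 to 34.3 CPM (median 22.4) in the well-fed and 0 to 34.7 CPM (median 0) in the underfed deep libraries.

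With oar-piR-57 as the reference, 2 others met the same condition, oar-piR-487 and oar-piR-1378. The summed CPM of these 3 was 933 to 1140 in well-fed replicates 1, 3, 6, 7 and 8, 50.02 in replicate 2 and 0 in replicate 4. Among underfed males it was 1762 in replicate 1, 1021 in replicate 5, 948 in replicate 7, 103 in replicate 2, 3.68 in replicate 4 and 0 in replicate 3. oar-piR-1378 had 0 to 105 CPM (median 54.5) in the well-fed and 0 to 118 CPM (median 37.6) in the underfed deep libraries. The sum of the 3 is mostly oar-piR-57, with a mean of 521 CPM over the deep libraries against 137 for oar-piR-487 and 48.5 for oar-piR-1378. By their sums, the 2 groups of piRNAs were high in partly different males. Well-fed replicates 3 and 7 and underfed replicate 1 were high in both. Well-fed replicates 6 and 8 were high in the group of oar-piR-57 and low in that of oar-piR-1617, well-fed replicates 2 and 4 were the reverse, and underfed replicates 3 and 4 were low in both. Single piRNAs departed from these sums. oar-piR-1378 was at 7.21 CPM in well-fed replicate 7 and at 50.02 CPM in well-fed replicate 2. oar-piR-3337 was at 20.8 CPM in underfed replicate 1, below its mean of 30.3 CPM.

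**Figure D3:**
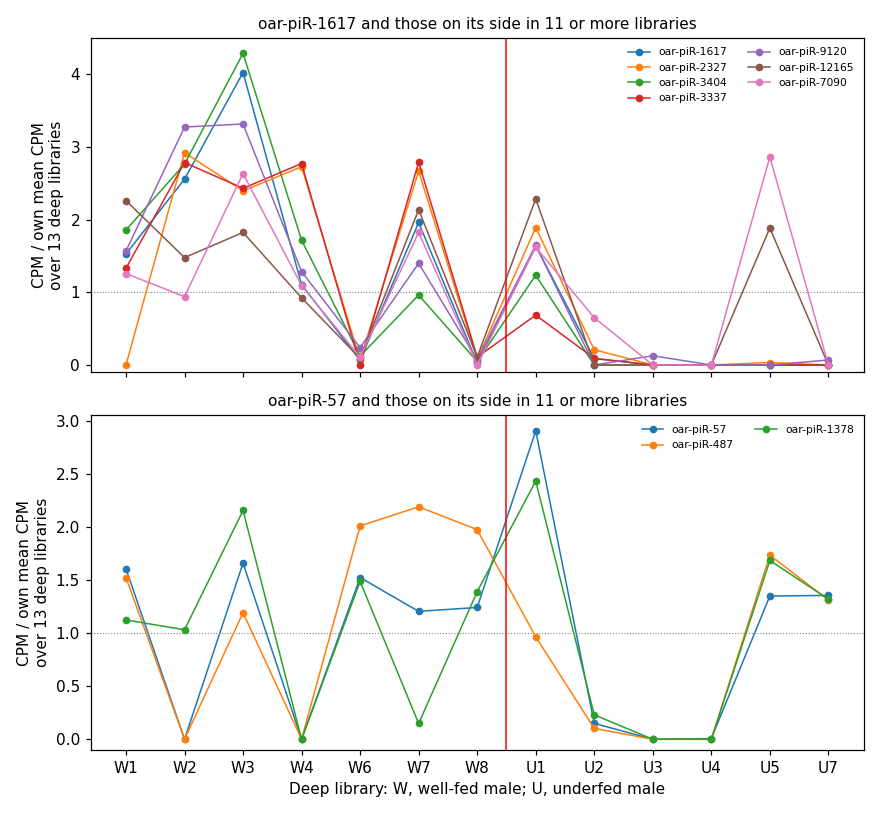
CPM of each piRNA divided by its own mean over the 13 deep libraries (vertical axis, dotted line at 1) in each deep library (horizontal axis; W, well-fed; U, underfed), for the group of oar-piR-1617 (top) and the group of oar-piR-57 (bottom). The 7 piRNAs of the top panel are near 0 in W6 and W8 while the 3 of the bottom panel are high in W6, and both groups are near 0 in U3 and U4.

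The remaining 39 piRNAs were near the limit of the depth. Their mean CPM over the deep libraries was 4.07 to 10.4 (median 5.67), and their highest count in any deep library was 4 to 15 reads. For these, a 0 was not distinguishable from a low level in at least 1 of the libraries that lacked them. oar-piR-8563 had 3.29 to 12.1 CPM (median 7.21) in the well-fed deep libraries and 0 to 11.2 CPM (median 1.39) in the underfed, and oar-piR-2008 had 3.07 to 9.70 CPM (median 8.07) and 0 to 7.36 CPM (median 1.60). oar-piR-7525 was the reverse, with 0 to 12.3 CPM (median 0) in the well-fed and 3.20 to 7.36 CPM (median 5.74) in the underfed. oar-piR-6855 had 0 to 12.3 CPM (median 5.17) in the well-fed and 0 to 7.36 CPM (median 4.83) in the underfed, and the ranges overlapped. All of these values came from 0 to 7 reads per library.

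The shallow libraries held fewer of the 69 than of the other piRNAs. Well-fed replicate 5 had reads for 26 (37.7%), underfed replicate 6 for 19 (27.5%) and underfed replicate 8 for 37 (53.6%), where the other piRNAs were found at 59.6%, 49.2% and 65.7%. The 69 had lower levels than the others, and in these libraries a single read was worth 39.1, 55.2 and 29.95 CPM, so a 0 there is not distinguishable from presence at most of the levels described above.

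The threshold of 3 deep libraries had no gap around it. Just inside it, oar-piR-57, oar-piR-1378 and oar-piR-9120 were at 0 in 3 deep libraries, with means of 521, 48.5 and 23.2 CPM. Just outside it, oar-piR-2287, oar-piR-13527 and oar-piR-2806 were at 0 in 2 deep libraries, with means of 429, 202 and 97.2 CPM.

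The question put to these libraries by the study was whether the 2 diets differ. All 4996 piRNAs met the filter of CPM above 5 in at least 8 libraries, the 69 included, and all were compared in 1 fit of log2(CPM + 1) with limma, in which the 69 carry the same values that chose them. Differential expression (DE) required a Benjamini-Hochberg FDR under 0.05 over all 4996 and a ratio of mean CPM (underfed over well-fed) under 0.67 or above 1.5. By limma 0 of the 69 were DE in either direction (over all piRNAs 0.02% higher and 0% lower), and the lowest FDR among them was 0.901. A voom fit (limma on counts) of the recovered reads also gave 0. At an unadjusted p under 0.05, limma counted 8 of the 69, against 4.52% of all piRNAs, and voom counted 9, against 8.51%. All 8 were lower in underfed males, where the background was 3.84%. In voom 6 of the 9 were higher, with a background of 4.18% higher and 4.32% lower.

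The 8 were oar-piR-8563, oar-piR-3085, oar-piR-2194, oar-piR-2008, oar-piR-1617, oar-piR-5885, oar-piR-9820 and oar-piR-4451. The largest difference was that of oar-piR-3085, which averaged 96.8 ± 75.1 CPM on the well-fed and 13.6 ± 25.3 CPM on the underfed diet (SD, n = 8 each), a log2 difference of -3.76 with SE 1.33 (limma, FDR 0.901). oar-piR-2194 came next, with 52.4 ± 34.6 CPM and 11.1 ± 20.6 CPM (log2 difference -3.19, SE 1.23, limma FDR 0.901). For oar-piR-1617 the means were 94.2 ± 86.0 CPM and 35.6 ± 50.9 CPM, and the log2 difference was -2.83 with SE 1.26 at the same FDR. Most of these SDs were close to or above the means. In each diet oar-piR-3085 and oar-piR-2194 were above 0 in some males and at 0 in others, and oar-piR-1617 was above 0 in every well-fed library. The lowest unadjusted p was that of oar-piR-8563, 0.00636 (limma, log2 difference -2.07, SE 0.68), a piRNA with 0 to 7 reads in every library.

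Among those higher in underfed males, oar-piR-2771 had the largest log2 difference, 2.52 with SE 1.74 (limma, FDR 0.901), and oar-piR-187, oar-piR-13257, oar-piR-1585 and oar-piR-6855 had 1.801, 1.42, 1.31 and 1.05. In the 13 deep libraries the difference of oar-piR-6855 was 0.061, and the others stayed at 1.09 or above. The shallow underfed replicates 6 and 8 held oar-piR-6855 at 55.2 and 29.95 CPM, from 1 read each. oar-piR-13257 and oar-piR-1585 were above 0 in every underfed deep library and at 0 in 3 of the well-fed, although the counts were low. oar-piR-13257 had 0 to 24.6 CPM (median 10.5) in the well-fed and 13.9 to 29.4 CPM (median 24.4) in the underfed deep libraries. In oar-piR-1585 the values were 0 to 17.2 CPM (median 2.02) and 2.95 to 24.5 CPM (median 12.0). The ranges overlapped in both.

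Over the 69, 48 log2 differences were below 0 and 21 above, with a median of -0.57, while 3358 of the 4996 piRNAs were below 0 and their median was -0.23. The shift of all piRNAs was smaller without the shallow libraries. In the 13 deep libraries alone the median of all was -0.041, and that of the 69 was -0.58 with 46 below 0 and 23 above. There 13 of the 69 had an unadjusted p under 0.05 (limma), 9 lower and 4 higher in underfed males, against 4.9% and 3.1% of all piRNAs (8.01% in either direction), and the lowest FDR was 0.438 (oar-piR-3404, between 0.438 and 0.994 over the alternatives). In the voom fit, which weights each value by its read count, the split was 37 below and 32 above 0 and the median was -0.095. The underfed deep libraries were shallower and held more of the zeros that chose the 69, so these counts are a description of the 69, and a fit with depth bears on them. With the log2 piRNA read total as a covariate, added after seeing the data, the median of the 69 was -0.43 (44 below and 25 above 0) and that of all piRNAs was 0.10. In that fit limma gave 0 DE among the 69 and counted 7 with an unadjusted p under 0.05 (9.35% of all piRNAs), 5 lower (2.16%) and 2 higher (7.19%).

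**Figure D4:**
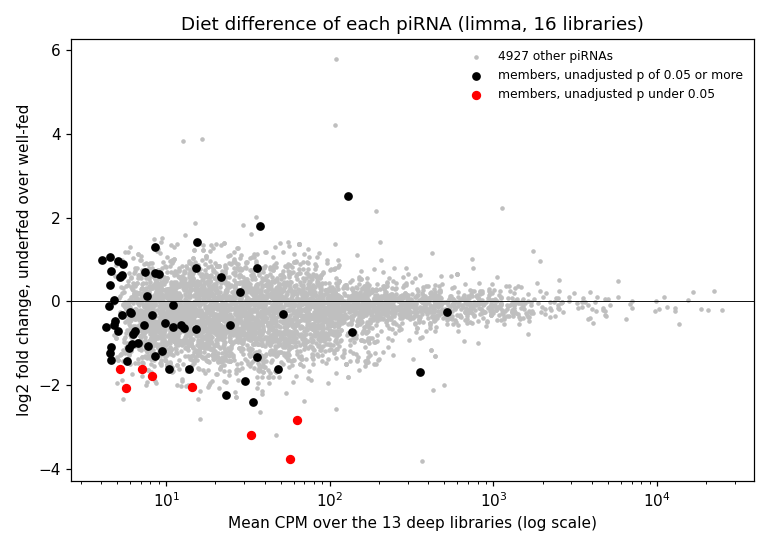
Log2 difference between diets (vertical axis, underfed over well-fed, limma on log2(CPM + 1), 16 libraries) against mean CPM over the 13 deep libraries (horizontal axis, log scale), 1 point per piRNA. The 69 piRNAs are in black, or red where the unadjusted p was under 0.05 (8 piRNAs), and reach from -3.76 to 2.52, around and beyond the grey points of the other 4927.

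Of the 69, 8 stand on the list of 35 DE piRNAs that was drawn up from these same libraries: oar-piR-2327, oar-piR-1617, oar-piR-3085, oar-piR-12568, oar-piR-3404, oar-piR-2194, oar-piR-3337 and oar-piR-9120. The 35 were called among all 4996 listed piRNAs. The study's edgeR test gave these 8 an FDR under 0.05, whereas limma here gave none of them one. The study had oar-piR-12568 higher in underfed males and the others of the 8 lower. A list made on these males is not independent evidence of the direction of these piRNAs. By annotation oar-piR-12568 lies in the 3′ UTR of FLVCR2, a membrane transporter of choline and haem, and oar-piR-2194 lies in an intron of a gene without a symbol. Log2 differences were -1.70 for oar-piR-2327, -2.41 for oar-piR-3404, -1.90 for oar-piR-3337, -2.24 for oar-piR-9120 and -0.29 for oar-piR-12568, and none of these 5 had an unadjusted p under 0.05 in limma over the 16 libraries. In the 13 deep libraries oar-piR-3404 was at -4.01 with SE 1.04 (limma, FDR 0.438) and oar-piR-3337 at -3.64 with SE 1.07 (FDR 0.438). The well-fed deep libraries held 1.64 to 144 CPM of oar-piR-3404 (median 57.8) and 0 to 84.7 CPM of oar-piR-3337 (median 73.8). The underfed held 0 to 41.6 CPM and 0 to 20.8 CPM, with medians of 0 in both.

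The ratio of means and the log2 difference of oar-piR-12568 over the 16 libraries pointed in opposite directions, although the sign of the latter was not stable. Underfed replicate 6, a shallow library, held 53 reads of it (2927 CPM), whereas the next highest underfed library, replicate 2, held 84 reads (234 CPM). The mean was 404 ± 1022 CPM in underfed and 73.5 ± 97.4 CPM in well-fed males (SD, n = 8 each), a ratio of 5.50, but the log2 difference was -0.29 with SE 1.67. That difference turned to 0.11 with a pseudocount of 5 CPM and to between 0.19 and 0.26 on leaving out any one of 7 males, and was -1.35 without underfed replicate 6. Without the 3 shallow libraries the ratio was 0.819 and the log2 difference -1.21 with SE 1.53, so 1 library decided the ratio.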

How the data were processed

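Small RNAs of 16 testes were sequenced by the study as pooled, indexed libraries (CASAVA 1.8), and reads of 26 to 32 nt were mapped with Bowtie 1.0.1 to OAR3.1. The authors deposited a signal per library, CPM with the miRNA and the piRNA class each divided by its own total and stacked in 1 column, and had tested it with edgeR. Diets came from the labels. piRNA reads were recovered by dividing by the lowest CPM above 0, and 100% of the low values (up to 200 reads) were whole within 0.02 reads in every library. The members and lists were chosen with earlier results of these data known. The 69 piRNAs were those at 0 in 3 or more of 13 deep libraries, and a 0 allows 3 reads. TMM factors (own implementation, trims of 30% and 5%) and limma 3.58.1 (R 4.3.3, trend, log2(CPM + 1)) were used on all piRNAs and were tested on simulated data. The simulation gave all males of a diet the same expected CPM of a piRNA, so it does not bear on the zeros of the 69. PCR reads are not independent molecules, so limits cover counting error only. Named were the 10 most abundant members, the 5 at 0 most often, the 5 with the lowest p in each direction, the 5 with the largest difference in zeros between diets (6 with a tie), those on the study's lists, 3 just inside and 3 outside the threshold, and the 3 highest and 3 lowest ratios of the smallest value above 0 to the mean of values above 0. Alternatives were no TMM, pseudocounts of 0.1 and 5, no filter, 13 deep libraries, replicate block, robust trend, FDR alone, each male left out, and, added after seeing the data, voom and a depth covariate. The split into 30 and 39, the pair counts and the 2 groups were also set after seeing the data.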

Additional observations from a re-analysis of the deposited data

Results flagged for a closer look

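For each of the 23 named piRNAs the CPM of the 8 males of each diet were examined for a male far from the rest, in 46 groups. A value was picked out where its gap to the nearest male, divided by the range of the group, was above Dixon's critical value of 0.526. This gave 7 values, where chance picks out about 1 in 20 groups of normally distributed values. The rate for values with zeros and single reads, as here, was not tested.

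The largest gap was that of oar-piR-12568 in underfed replicate 6, a shallow library, at 2927 CPM (53 reads), with the next highest underfed male at 234 CPM. oar-piR-2771 was highest in underfed replicate 1, at 468 CPM (135 reads), and the next was 210 CPM. oar-piR-1585 was highest among well-fed males in replicate 2, at 17.2 CPM (10 reads), with 6.15 CPM next.

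The other 4 values came from 1 or 2 reads in shallow libraries. oar-piR-7525 had 39.1 CPM in well-fed replicate 5 and 29.95 CPM in underfed replicate 8, each 1 read. oar-piR-8563 had 39.1 CPM in well-fed replicate 5, also 1 read, and oar-piR-12165 had 110 CPM in underfed replicate 6, from 2 reads.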

How the results depend on the processing

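No alternative gave a DE piRNA among the 69. The count at an unadjusted p under 0.05 was 8, rose to 13 in the 13 deep libraries, and ranged from 5 to 11 as each male was left out, with 5 without well-fed replicate 3, well-fed replicate 7 or underfed replicate 4. The median log2 difference was -1.07 with a pseudocount of 0.1 CPM and -0.095 with the voom alternative, and -0.75 to -0.38 as each male was left out. The difference of oar-piR-12568 turned to 0.11 with a pseudocount of 5 CPM and to between 0.19 and 0.26 without well-fed replicate 2, 3 or 5 or underfed replicate 3, 4, 5 or 7 (0.19, 0.20, 0.23, 0.24 or 0.26), and was -1.35 at the lowest with 1 male left out. The choice of threshold moved the number of piRNAs: 236 were at 0 in 2 or more deep libraries, 26 in 4 or more, and 401 had at most 1 read in 3 or more. The cause of these changes was not tested.

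Same-numbered males of the diets correlated in their deviations at -0.0792 to 0.145 (mean 0.020), and differently numbered males at a mean of 0.0071. Of 8, 3 correlated best with their own number. Whether the numbers pair the males was not tested, and the main fit did not pair them. A fit with the replicate block counted 9 of the 69 at an unadjusted p under 0.05 and 0 DE. Depth limits the 39 less abundant piRNAs most. An edgeR fit of recovered reads and the share beginning with U were not run.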
